A study of Mus musculus with 2 samples.

Results

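Of the 49 genes in a list of blood and lymphatic endothelial genes, 46 have a probe set with that gene symbol in the platform annotation of the Clariom S Mouse Array and are described here. They stand among 19505 gene symbols measured on the same arrays. The list was drawn up by gene function, without a measured cutoff, and Nrp1, Egfl7 and Rasip1 were not analysed here because no probe set used carries their symbol. WT_A12 mice belong to the consomic strain A/J-12SM, which has the chromosome 12 of SM/J in an A/J background, and KO_A12 mice are the same strain made homozygous for a CRISPR/Cas9 deletion in the first exon of Iah1 in all tissues. All mice were males that ate a high-fat diet from 6 weeks of age for 12 weeks and went without food for 4 h before the epididymal fat was taken at 18 weeks of age. Total RNA of 3 mice per genotype was pooled and hybridized to 1 array, so there are 2 arrays in all, 1 per genotype. The KO_A12 line was kept by mating homozygous mice, so its mice and the WT_A12 mice came from separate matings. Neither the spread between mice nor that between arrays is known, and all differences are given without a test.

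Endothelial cells line all blood and lymphatic vessels. Their identity is set by ETS and SOX family transcription factors, and they are held together by junction proteins such as VE-cadherin and claudin 5. Vascular endothelial growth factors (VEGFs) act through receptors on these cells, while Notch signaling from Dll4 favours an arterial fate and Prox1 drives the lymphatic one. Fat is densely supplied with capillaries, which deliver the fatty acids that adipocytes store, and lymphatic vessels drain the fluid and immune cells of the tissue.

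The values are log2 signals, and a difference is always the KO_A12 signal minus the WT_A12 signal. A difference of 1 is thus a 2-fold difference in signal, compressed where a signal is near background. The targeted gene Iah1 gave a log2 signal of 9.52 for WT_A12 and 8.35 for KO_A12, a log2 difference of -1.17. By real-time qPCR and Western blot the study detected neither Iah1 mRNA nor IAH1 protein in KO_A12 mice. Whether the array probes of Iah1 lie in the deleted part is not given in the sources used here. Adipoq, the adiponectin gene that marks adipocytes, had log2 signals of 18.2 and 18.3. Over all genes the median log2 difference was -0.0009, and the middle 95% of log2 differences ran from -0.84 to 0.85. This range describes the scatter of genes on these arrays and is not an error of a single gene. The 23 background control probe sets had median log2 signals of 5.75 and 5.61 on the WT_A12 and KO_A12 arrays, and 39 of the 46 genes had a log2 signal over 7 on both arrays.

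Most endothelial genes had a slightly higher signal in the KO_A12 pool. Of the 46 genes 39 were higher and 7 lower, against 49.8% of all genes higher, and of the 39 genes over 7 on both arrays 35 were higher, against 44.1% of all genes over 7 on both arrays. The 32 blood endothelial genes had a median log2 difference of 0.30, that is 1.23-fold, and 31 of them were higher. They leave out the VEGF ligands and the venous and activated genes, among which Vwf was at -0.14 and Selp at -0.23. Of 14 blood-restricted genes, Vwf included, 12 were higher. The differences were small. At 1.5-fold with a KO_A12 log2 signal over 7, 9 of the 46 genes were higher, against 2.12% of all genes. Of these 9, Notch4 and Prox1 passed only through the KO_A12 array, where they were high, and among the 39 genes over 7 on both arrays 7 were higher, against 2.98% of all genes over 7 on both arrays. At 1.5-fold with a WT_A12 log2 signal over 7, 0 of 46 were lower, against 3.82% of all genes. At the 2-fold cutoffs used in the study, 0 of 46 were higher and 0 were lower, against 0.523% and 0.774% of all genes. In bulk tissue, more endothelial cells, more RNA per endothelial cell and a smaller share of RNA from other cells cannot be told apart.

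**Figure D1:**
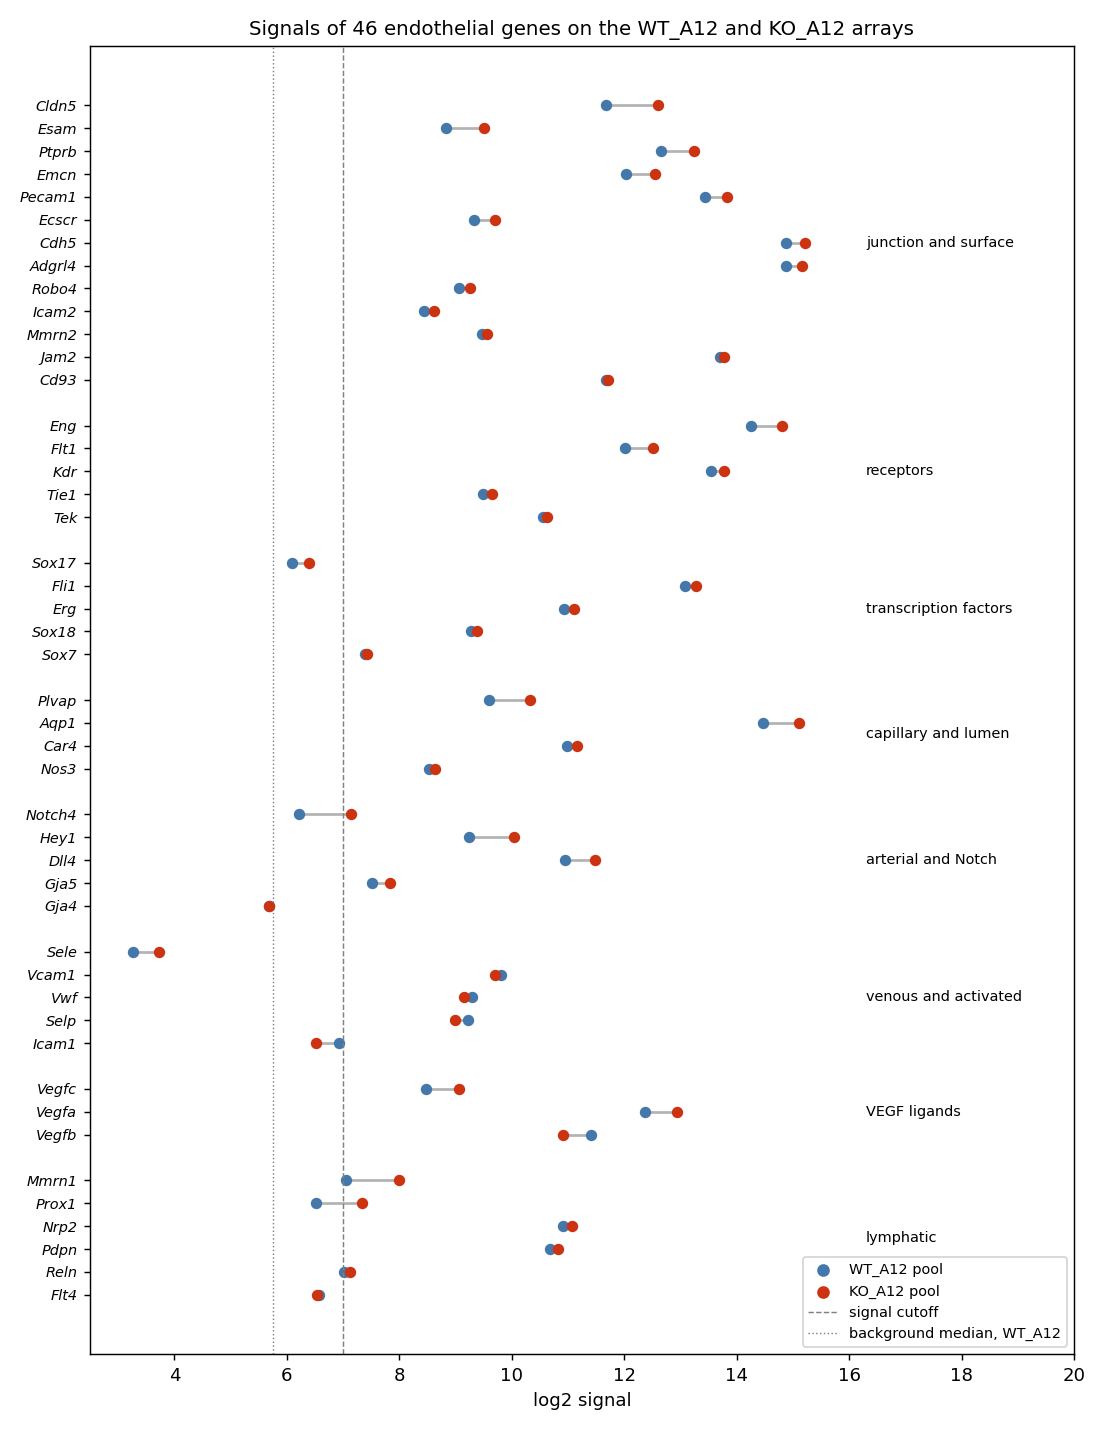
Log2 signal (x axis) of each of the 46 genes in the WT_A12 pool (blue) and the KO_A12 pool (red), grouped by role, with 1 array per genotype and no error bars; the dashed line marks the cutoff of 7 and the dotted line the WT_A12 background median of 5.75. In all blood endothelial groups but the arterial one, every red point lies to the right of its blue point.

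The regions before the gene starts are shown for 5 genes, namely the blood genes Cldn5, Notch4 and Emcn, the lymphatic gene Mmrn1, and Selp, which was lower in KO_A12, and the other 4 have log2 differences from 0.53 to 0.95. They were chosen after the values were seen. Each run holds 250 bases before and 50 bases after the start, 300 in all, from RefSeq on GRCm38.p6 and written 5′ to 3′ on the strand of the gene. Capitals mark matches on either strand to 3 short motifs, AGGAAG of the ETS factors, AACAAT of the SOX factors and GTGGGAA of RBPJ, the DNA-binding partner of Notch.
Cldn5, chr16:18776597-18776896, plus strand: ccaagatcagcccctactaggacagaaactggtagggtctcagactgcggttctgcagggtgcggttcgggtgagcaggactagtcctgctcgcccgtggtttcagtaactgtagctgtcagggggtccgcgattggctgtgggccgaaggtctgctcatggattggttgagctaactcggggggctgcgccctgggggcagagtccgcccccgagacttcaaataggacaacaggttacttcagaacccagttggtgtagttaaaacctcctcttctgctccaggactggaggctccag
Notch4, chr17:34564045-34564344, plus strand: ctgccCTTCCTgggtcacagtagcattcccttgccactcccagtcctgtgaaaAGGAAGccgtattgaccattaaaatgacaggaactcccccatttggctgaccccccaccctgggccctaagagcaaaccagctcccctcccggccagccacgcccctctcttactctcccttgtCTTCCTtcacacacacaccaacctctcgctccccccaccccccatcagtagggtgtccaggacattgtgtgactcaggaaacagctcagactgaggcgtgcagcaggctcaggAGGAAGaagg
Emcn, chr3:137340828-137341127, plus strand: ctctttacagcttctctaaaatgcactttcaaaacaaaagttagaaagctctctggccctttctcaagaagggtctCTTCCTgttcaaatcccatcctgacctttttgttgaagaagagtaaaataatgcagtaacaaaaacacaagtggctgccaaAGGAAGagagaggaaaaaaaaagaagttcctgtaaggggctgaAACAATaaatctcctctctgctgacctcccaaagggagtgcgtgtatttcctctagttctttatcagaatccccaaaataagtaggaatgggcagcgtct
Mmrn1, chr6:60944067-60944366, plus strand: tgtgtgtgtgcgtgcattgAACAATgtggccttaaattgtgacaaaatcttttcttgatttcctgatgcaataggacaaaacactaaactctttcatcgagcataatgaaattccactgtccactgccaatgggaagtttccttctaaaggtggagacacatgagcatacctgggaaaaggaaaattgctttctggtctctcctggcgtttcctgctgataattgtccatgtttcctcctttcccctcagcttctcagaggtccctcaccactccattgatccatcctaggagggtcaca
Selp, chr1:164115014-164115313, plus strand: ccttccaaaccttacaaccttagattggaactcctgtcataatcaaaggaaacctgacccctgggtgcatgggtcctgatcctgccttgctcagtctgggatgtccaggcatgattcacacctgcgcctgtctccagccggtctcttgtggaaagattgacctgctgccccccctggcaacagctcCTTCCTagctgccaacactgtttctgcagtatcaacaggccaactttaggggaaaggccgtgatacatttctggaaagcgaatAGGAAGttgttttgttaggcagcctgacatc

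No base of these 5 windows lies in more than 1 of the motifs. The Notch4 window has 4 matches to AGGAAG, those of Emcn and Selp have 2 each, and the Cldn5 window has no match to any of the 3 motifs. The windows of Emcn and Mmrn1 each have 1 match to AACAAT. The RefSeq table held windows for 28 of the 46 genes, 32 windows in all. AGGAAG was found in 37.5% of them and in 35.4% of the 32841 windows of all genes, AACAAT in 12.5% and 10.7%, and GTGGGAA in 6.25% and 6.38%. Among the members, AGGAAG was found in 10 of 18 windows of blood endothelial genes and in 0 of 7 windows of lymphatic genes. These windows come from 16 of the 32 blood endothelial genes and from 6 lymphatic genes, and Erg and Prox1 have several each. A contrast between the groups was not tested. The lymphatic windows held a median of 25 CpG dinucleotides, the blood windows 7.5 and all windows 7. A match describes the letters of a window and is not evidence of binding.

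All 13 genes of junctions and the cell surface had a higher signal in KO_A12, against 49.8% of all genes, and their median log2 difference was 0.34. The largest was that of Cldn5, claudin 5 of the tight junction, with log2 signals of 11.68 for WT_A12 and 12.60 for KO_A12, a log2 difference of 0.91 or 1.88-fold. Esam, an adhesion molecule of endothelial tight junctions, had log2 signals of 8.83 and 9.50, a log2 difference of 0.68. Ptprb, the phosphatase VE-PTP that restrains Tie2 and VE-cadherin signaling, had 12.65 and 13.24, a log2 difference of 0.59. Emcn, the sialomucin endomucin of capillaries and veins, had 12.03 and 12.55, a log2 difference of 0.53. These 4 genes are thus the upper end of the group, and 3 of them passed 1.5-fold.

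The general markers of the cell type lay in the middle of the group. Pecam1, the adhesion molecule CD31, had log2 signals of 13.44 and 13.84, a log2 difference of 0.40. Cdh5, the VE-cadherin of adherens junctions, had log2 signals of 14.88 and 15.22, a log2 difference of 0.34. Ecscr, an endothelial surface protein of chemotaxis, was at 0.39 and Adgrl4, an adhesion G protein-coupled receptor of the endothelium, at 0.28. The remaining surface genes moved little. Robo4, a receptor that stabilizes vessels, was at 0.19 and Icam2, a ligand of leukocyte integrins, at 0.17. Mmrn2, a matrix protein of endothelium that binds Cd93, was at 0.08, Jam2, a junctional adhesion molecule, at 0.07, and Cd93 itself at 0.03. The genes Robo4 and Esam lie close together, with 2 protein-coding genes between them in RefSeq, as do Icam2 and Pecam1, and the log2 differences within each pair were 0.19 and 0.68, and 0.17 and 0.40.

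**Figure D2:**
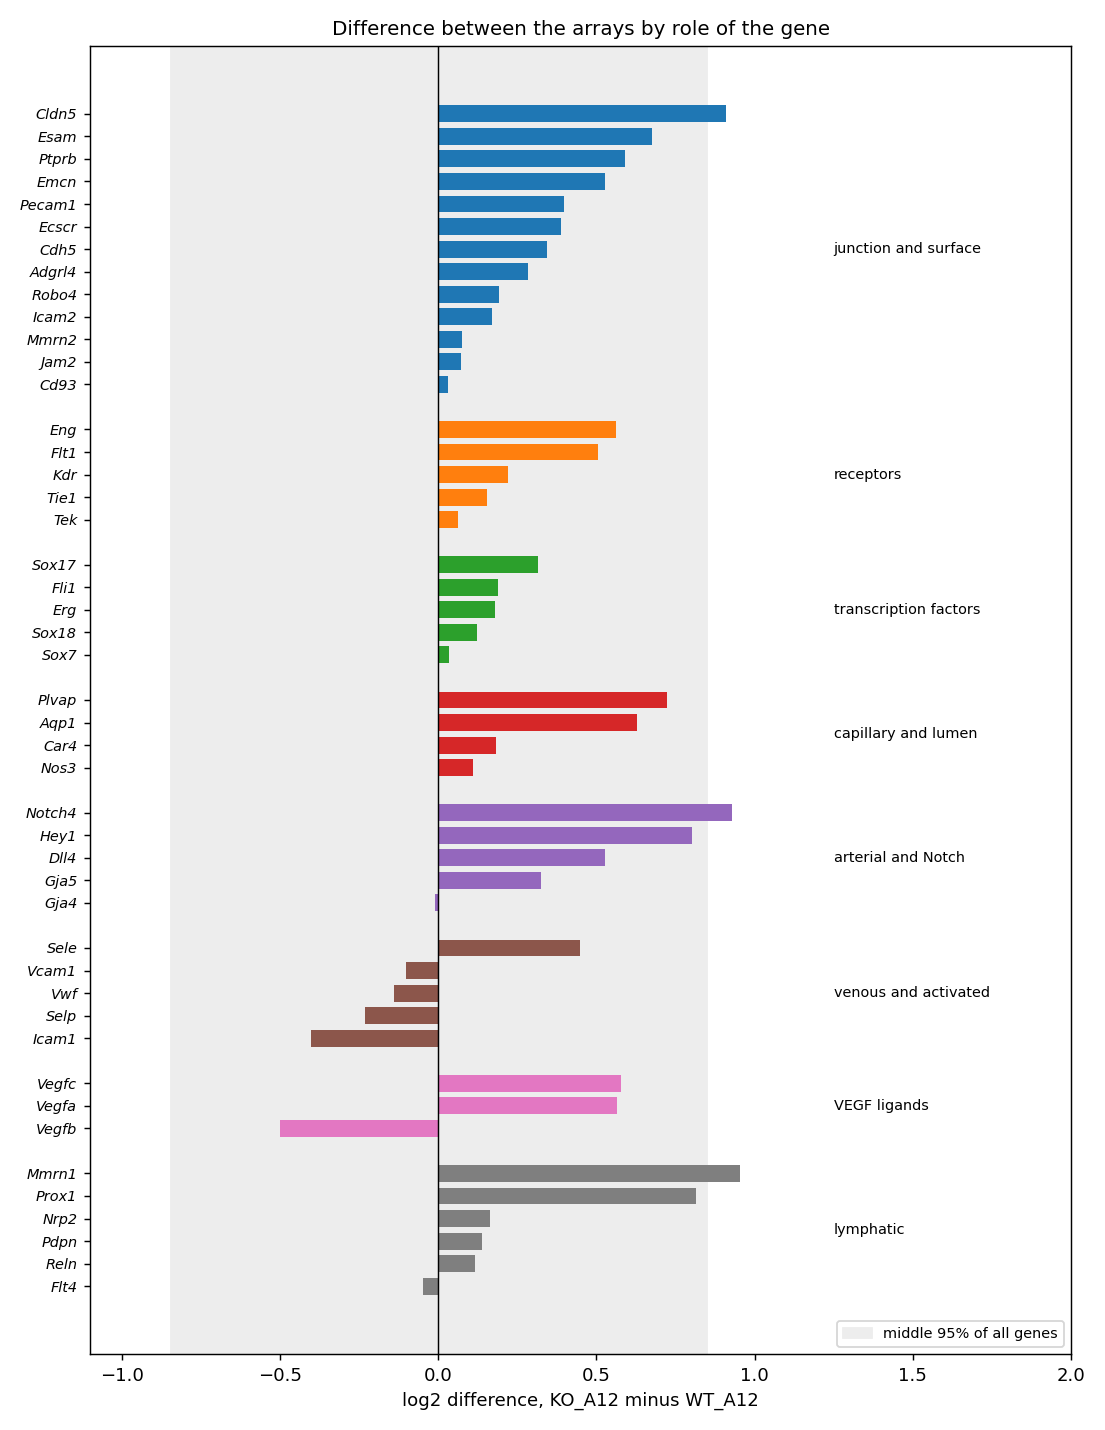
Log2 difference (x axis, KO_A12 minus WT_A12) of each gene, coloured by role; the grey band holds the middle 95% of the log2 differences of all genes, from -0.84 to 0.85. Cldn5, Notch4 and Mmrn1 reach beyond the band, and most of the bars to the left of 0 belong to the venous and activated group.

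All 5 measured receptors of blood endothelium were higher in KO_A12, against 49.8% of all genes. Their median log2 difference was 0.22, and none passed 1.5-fold. Eng, the TGF-beta family coreceptor endoglin, had log2 signals of 14.25 and 14.81, a log2 difference of 0.56. Flt1, a VEGF receptor that also acts as a decoy for VEGF-A, had 12.01 and 12.52, a log2 difference of 0.50. Kdr, the main signaling receptor for VEGF-A, had 13.55 and 13.77, a log2 difference of 0.22. The angiopoietin receptor Tek, also known as Tie2, had signals of 10.56 and 10.62, and its partner Tie1 of 9.50 and 9.65. The log2 differences of both, 0.06 and 0.16, were smaller than those of Flt1 and Kdr.

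The 5 transcription factors showed the smallest shift among the blood endothelial groups, with a median log2 difference of 0.18. Again all were higher, against 49.8% of all genes. The ETS factors Erg and Fli1, which maintain endothelial identity, were at 0.18 and 0.19, with log2 signals of 10.93 and 11.11 for Erg and of 13.08 and 13.27 for Fli1. Fli1 is also expressed by leukocytes and platelets. Of the SOX factors of vessels, Sox18 had log2 signals of 9.27 and 9.39, a log2 difference of 0.12. Sox7 was at 0.03 and Sox17, an arterial factor, at 0.32, but Sox17 stayed under the cutoff with log2 signals of 6.09 and 6.40.

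The 4 measured genes of capillaries and of the lumen were higher, against 49.8% of all genes, with a median log2 difference of 0.41 for the 4. Plvap, which forms the diaphragms of fenestrae and caveolae, had log2 signals of 9.60 and 10.32, a log2 difference of 0.72 or 1.65-fold. Aqp1, the water channel aquaporin 1, had 14.48 and 15.11, a log2 difference of 0.63. Both passed 1.5-fold. Aqp1 is also made by red cells and mesothelium. Car4, a carbonic anhydrase on the capillary surface, had log2 signals of 10.98 and 11.17, a log2 difference of 0.18. Nos3, the endothelial nitric oxide synthase, had 8.53 and 8.64, a log2 difference of 0.11.

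Arterial and Notch genes had the highest median among the blood endothelial groups, a log2 difference of 0.53 over 5 genes. Notch4, the Notch receptor of endothelium, had log2 signals of 6.21 for WT_A12 and 7.14 for KO_A12, a log2 difference of 0.93 or 1.90-fold, and it passed the signal cutoff on the KO_A12 array only. Hey1, a transcriptional repressor induced by Notch, had 9.24 and 10.05, a log2 difference of 0.80. Dll4, the Notch ligand of arterial and sprouting endothelium, had 10.95 and 11.48, a log2 difference of 0.53. The named ligand, receptor and target were thus all higher, but Hey1 is also known from other cells of fat. Among Notch genes outside this group, Notch1 had a log2 difference of 0.19, Jag1 of 0.18 and Heyl of 0.15. Dll1 was at 0.55, Notch3 of the mural cell list at 0.48 and Hey2 at 0.71. All of these but Hey2 were over the signal cutoff on both arrays. A common shift of the Notch pathway was not tested. Of the arterial gap junction genes, Gja5, connexin 40, had log2 signals of 7.52 and 7.84, a log2 difference of 0.33. Gja4, connexin 37, had 5.69 and 5.68, near the background controls. Among the 32 blood endothelial genes it was the only gene that was not higher.

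The venous and activated endothelial genes had small differences. Of 5 genes 1 was higher and 4 were lower in KO_A12, against 49.8% of all genes higher, the median log2 difference was -0.14, and none passed 1.5-fold in either direction. Selp, the P-selectin that is stored in endothelial granules and in platelets, had log2 signals of 9.22 and 8.98, a log2 difference of -0.23. Vwf, the von Willebrand factor of the same granules, had 9.30 and 9.16, a log2 difference of -0.14. The size of both differences is below the blood endothelial median of 0.30. Icam1, an adhesion molecule induced by inflammation, had log2 signals of 6.93 and 6.52, a log2 difference of -0.40. Vcam1, an adhesion molecule that fibroblasts and macrophages also express, had 9.80 and 9.70, a log2 difference of -0.10. Sele, the E-selectin of inflamed endothelium, had signals of 3.27 and 3.72, under the background medians of both arrays, so its log2 difference of 0.45 is uncertain. In RefSeq 1 protein-coding gene lies between Sele and Selp. Icam1 and Vcam1 were lower together with the macrophage list, whose values are given with the other cell types, and the part of those cells was not tested.

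The VEGF ligands did not move together. Vegfa, the main growth factor of blood vessels, which adipocytes and other cells secrete, had log2 signals of 12.37 and 12.94, a log2 difference of 0.56 or 1.48-fold. Vegfc, the growth factor of lymphatic vessels, had 8.48 and 9.06, a log2 difference of 0.58 or 1.49-fold. Vegfb, which binds Flt1 but not Kdr, had 11.42 and 10.92, a log2 difference of -0.50, that is 1.41-fold higher in the WT_A12 pool. Vegfb had the lowest difference of all 46 genes, and none of the 3 ligands passed 1.5-fold. Of 19 further genes of the VEGF, angiopoietin and Notch pathways 17 were higher, against 49.8% of all genes, with a median log2 difference of 0.41. Efnb2, the arterial ephrin B2, had the largest log2 difference of these, 1.06, with log2 signals of 11.79 and 12.85. Hey2, another Notch target of arteries, was at 0.71, with log2 signals of 6.59 and 7.30, over 7 on the KO_A12 array only. Ccbe1, needed for the processing of VEGF-C, was at 0.69.

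Among the 6 lymphatic genes 5 were higher in the KO_A12 pool, against 49.8% of all genes. The 6 genes split into a pair with large and a set with small differences. Mmrn1, multimerin 1, which is made by lymphatic endothelium and platelets, had log2 signals of 7.05 and 8.0, a log2 difference of 0.95 or 1.94-fold, the largest of all 46 genes. Prox1, the transcription factor that specifies lymphatic endothelium, had 6.52 and 7.33, a log2 difference of 0.81, and like Notch4 it was over 7 on the KO_A12 array only. Both passed 1.5-fold. Flt4, the receptor for VEGF-C, had 6.58 and 6.53, a log2 difference of -0.05, and Reln, a secreted glycoprotein of collecting lymphatics, had 7.01 and 7.13, a log2 difference of 0.12. The signals of these 4 genes were weak on both arrays. Nrp2, a coreceptor for VEGF-C, had 10.91 and 11.07, a log2 difference of 0.17. Pdpn, podoplanin, which mesothelium and fibroblasts also express, had 10.68 and 10.82, a log2 difference of 0.14.

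Whether the blood or the lymphatic genes had the larger difference depended on the summary and on the genes taken. The median log2 difference was 0.30 for the 32 blood endothelial genes and 0.15 for the 6 lymphatic genes, a gap of 0.15 on the log2 scale. The gap was 0.081 after quantile normalization and 0.089 after removal of a trend of the difference with signal. By the mean the blood genes were at 0.35 and the lymphatic genes at 0.36, so the gap turned to -0.0054. With 14 blood-restricted genes, which include Vwf, and the 4 stricter lymphatic markers, which leave out Pdpn and Nrp2, the medians were 0.41 and 0.47, a gap of -0.05. Further lymphatic genes gave no common direction either. Of 14 such genes 8 were higher, against 49.8% of all genes, with a median log2 difference of 0.03. Ccl21a, the chemokine of lymphatic vessels and of lymph node stroma, had a log2 difference of 1.04, with log2 signals of 11.99 and 13.03, while Itga9, an integrin of lymphatic valves, was at -0.42 and Maf, a factor also found in macrophages, at -0.40. Lyve1, a hyaluronan receptor of lymphatics that resident macrophages also carry, had log2 signals of 10.63 and 10.32, a log2 difference of -0.32. Of 7 genes of lymph node stroma, Ccl21a included, 6 were higher, with a median log2 difference of 0.47, and 4 of the 7 were under the background medians on both arrays. The part of lymph node tissue was not tested.

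The blood endothelial genes were mostly higher at weak and at strong signals. In the strongest band, with a mean log2 signal over 13, all 8 blood endothelial genes were higher, against 50.9% of the 1307 genes in this band, and their median log2 difference was 0.31. Between 11 and 13 all 8 were higher, against 46.4%, with a median of 0.52. Between 9 and 11 all 9 were higher, against 40.1%, with a median of 0.19, and between 7 and 9 all 4, against 43.3%. Under 7, 2 of 3 were higher, against 54.8%. The middle 95% of all log2 differences narrowed from -0.94 to 0.82 between 7 and 9 to -0.60 to 0.44 over 13. In their own bands, 9 of the 46 genes lay above this range, namely Mmrn1, Esam, Plvap, Hey1, Cldn5, Ptprb, Vegfa, Eng and Aqp1, and 0 lay below it.

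**Figure D3:**
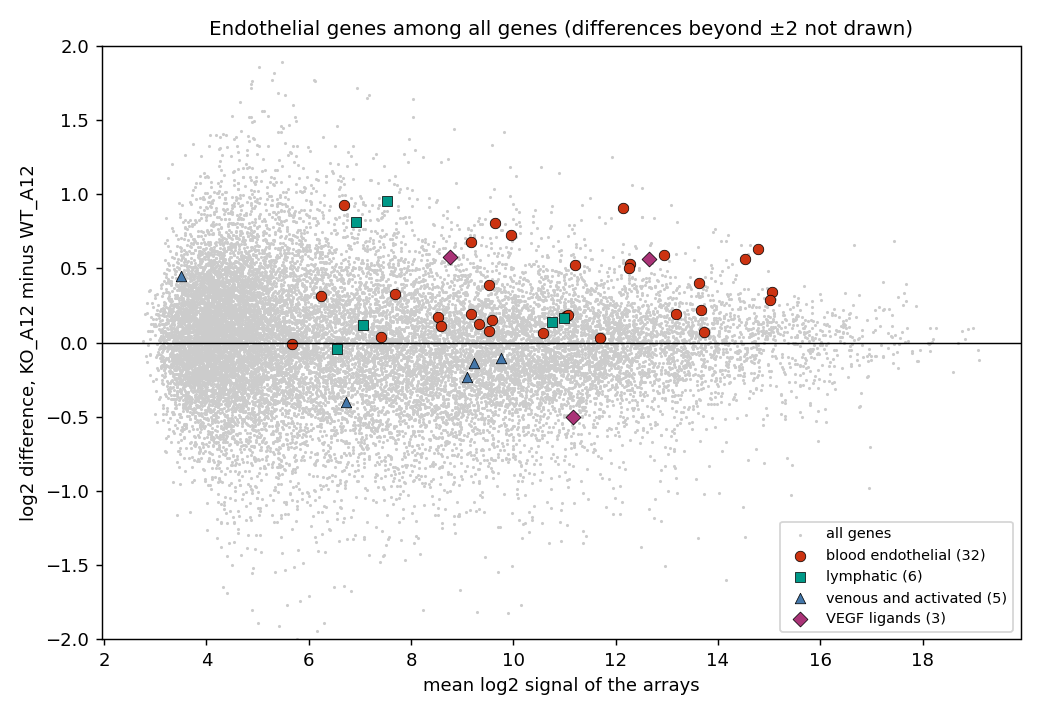
Log2 difference (y axis, KO_A12 minus WT_A12) against mean log2 signal (x axis) for all genes (grey) and the 46 endothelial genes by group; the 59 genes with a difference beyond 2 in size are not drawn. The blood endothelial genes (red circles) lie between -0.01 and 0.93, with 31 of 32 above 0.

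Another set of 26 genes known from blood endothelium, outside the 49, gave a mixed picture. Of these 19 were higher, against 49.8% of all genes, with a median log2 difference of 0.25. At 1.5-fold 5 were higher, against 2.12% of all genes, and 2 were lower, against 3.82%. Their summed log2 signal hardly moved, from 17.68 to 17.74. It is carried by a few genes with strong signals, among them Ly6c1, a surface antigen of endothelium and monocytes, with a log2 difference of 0.10, and Sparcl1, a matrix protein, with -0.11. Cd34, a sialomucin of endothelium and progenitors, was at -0.09. Podxl, the sialomucin podocalyxin, was at 0.80, She, an adaptor protein, at 0.74 and Aplnr, the apelin receptor of veins and sprouting vessels, at 0.67. Gpihbp1, which carries lipoprotein lipase to the capillary surface, had log2 signals of 11.8 and 12.4, a log2 difference of 0.61. The genes that were lower at 1.5-fold were Ramp2, a partner of the adrenomedullin receptor, at -0.61 and Lmo2, a transcriptional cofactor of blood and endothelial cells, at -0.59. Ly6c1, Sparcl1, Cd34, Gpihbp1, Ramp2 and Lmo2 were chosen after their values were seen.

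Genes of other cells moved beside the endothelial ones. Of 12 mural cell genes 11 were higher, against 49.8% of all genes, with a median log2 difference of 0.38. Kcnj8, a potassium channel of pericytes, was at 0.89 and Rgs5 at 0.66, while Cspg4, the pericyte proteoglycan NG2, was at -1.16. Of 12 mesothelium genes 10 were higher (median log2 difference 0.52). Upk1b was at 0.97, Upk3b at 0.90 and Msln at 0.84, while Wt1 was at -0.35 and Bnc1 at -0.57. Upk3b had log2 signals of 9.61 and 10.51, whereas Wt1 and Bnc1 were under 7 on both arrays. Only 3 of the 12 were over 7 on both arrays, and 2 were under the background medians on both. Of 14 macrophage genes 13 were lower (median -0.67) and of 12 fibroblast genes all 12 (median -0.65), whereas the 13 adipocyte genes had a median of -0.05. Summed over the list on the linear scale, the log2 signal went from 17.64 to 17.06 for macrophage genes, from 18.80 to 18.48 for fibroblast genes, from 15.67 to 16.06 for mural cell genes and from 12.40 to 12.90 for mesothelium genes, while for the blood endothelial genes it went from 17.48 to 17.87. Adgre1 and Csf1r, which define macrophages, had log2 differences of -0.57 and -0.67. The largest in size were those of Itgb2 at -1.55 and Cd14 at -1.13 among macrophage genes. Among fibroblast genes they were those of Mfap5 at -1.51 and Lum at -1.31. The part of these cells in the endothelial values was not tested.

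Signals of genes known from other organs also differed between the pools, and the source of that RNA was not tested. Beside the counts that follow, 49.8% of all genes were higher. All 14 hepatocyte genes were higher in KO_A12, the median log2 difference being 2.72, with log2 signals of 8.22 and 15.99 for Alb, and all 6 seminal vesicle genes were higher, with 5.01 and 12.96 for Svs2. Summed over the list, the hepatocyte log2 signal went from 16.34 to 17.63, but nearly all of the WT_A12 sum is Trf, transferrin, which other tissues also make, with log2 signals of 16.33 and 16.99. The summed log2 signal of the seminal vesicle genes went from 6.99 to 13.86. The sinusoidal endothelium of the liver has markers of its own. Of these, Clec4g and Stab2 had log2 signals of 4.22 and 4.28, and of 3.68 and 3.73, under the background medians of both arrays. Clec1b had 5.56 and 5.99, a log2 difference of 0.43, under the background median on the WT_A12 array only. Oit3 had 5.25 and 5.52, a log2 difference of 0.28, under both medians, and Gpr182 had 8.04 and 8.10. Cd209b, a lectin also found on macrophages, had a log2 difference of 0.60, while Fcna, a ficolin also made by macrophages, was at -0.77 and Lyve1 at -0.32. Of 13 genes of this list 10 were higher, with a median of 0.06, and the summed log2 signal was 13.31 and 13.36, most of it from Fcgr2b, an Fc receptor that macrophages share, with 12.75 and 12.83. Platelets share Selp, Vwf, Mmrn1, Pecam1 and Fli1 with endothelium. Of 10 platelet genes 6 were higher, with a median of 0.16, and 4 were under the background medians on both arrays. Their summed log2 signal went from 11.40 to 11.16. Most of it came from Pf4, with log2 signals of 11.01 and 10.67, a log2 difference of -0.34. The sum thus mostly follows Pf4 alone. Itga2b was at 0.21 and Itgb3 at -0.47. Gp9 was at 0.30, Clec1b at 0.43 and Ppbp at -0.04, all under 7 on both arrays. Of 5 measured erythroid genes 4 were higher, but 3 of the 5 were under the background medians on both arrays. The other two were Slc4a1, the anion exchanger of red cells, with a log2 difference of 0.22, and Alas2, the heme synthesis enzyme of red cell precursors, with log2 signals of 8.72 and 9.30. The summed erythroid log2 signal went from 9.41 to 9.89, beside the higher signal of Aqp1. The part of endothelium, platelets or red cells from other organs or from blood was not tested.

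**Figure D4:**
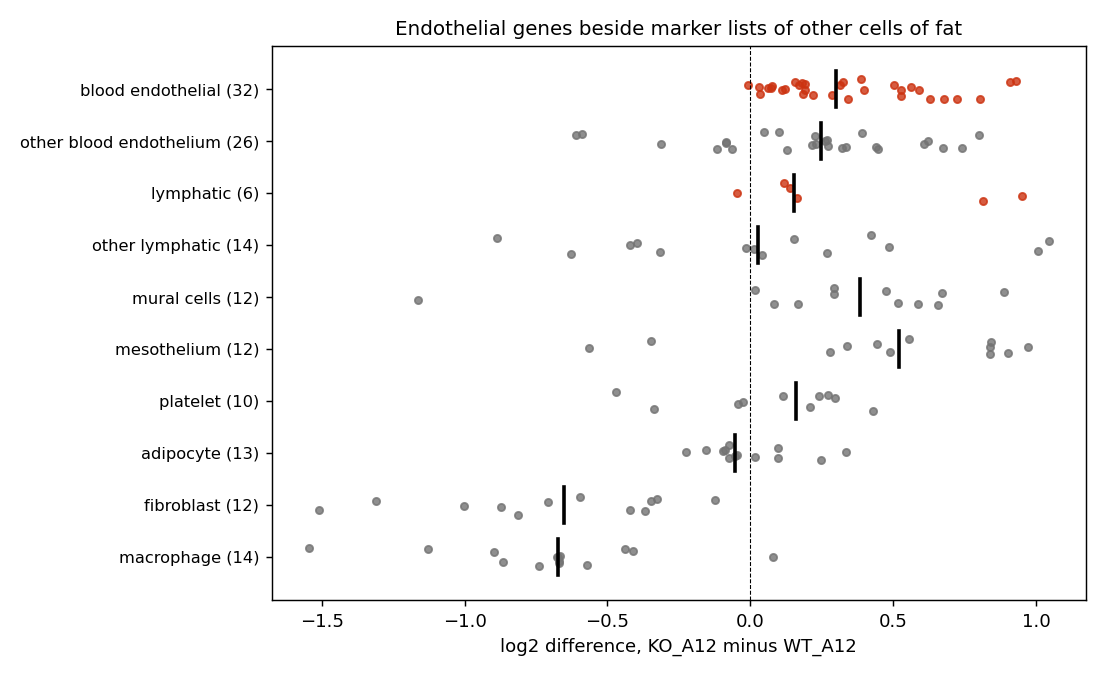
Log2 difference (x axis, KO_A12 minus WT_A12) of each gene in the blood endothelial and lymphatic groups (red) and in lists of other cells (grey), with the number of genes in brackets and a black line at each median; the vertical spread of points within a row has no meaning. Endothelial, mural and mesothelial medians lie to the right of 0, the adipocyte median at -0.05, and the macrophage and fibroblast medians to the left, at -0.67 and -0.65.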

How the data were processed

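Total RNA of epididymal fat was purified, pooled from 3 mice per genotype, and 100 ng was labelled for 1 Clariom S Mouse Array each. Normalization by the authors used the algorithm their methods call STT-RMA in the GeneChip Console Software, and the submitters' processing notes name RMA. The deposited values are log2 signals per probe set. They were already scaled between the arrays, which limits what a further scaling can change, and the sources used here do not name the genome build behind the annotation. The table has 28846 rows, from which 6640 control rows were removed. Of the 22206 probe sets kept, 19572 carry 1 symbol, 0 several and 2634 none. For each gene symbol the probe set of highest mean signal was used, and each of the 46 genes has 1 probe set. A gene was counted as higher at a log2 difference over that of 1.5-fold and a KO_A12 log2 signal over 7, and as lower with the same cutoff on the WT_A12 array. The 2-fold cutoffs follow the study.

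The genes, the other lists and the rule for named genes (all 46, Iah1, and up to 3 genes of each other list by the size of the difference among those with a log2 signal over 7) were chosen with earlier results of these data known. Not every gene of the other lists that the rule selects is named in the text. Genes of other lists named beyond that rule were chosen after their values were seen. Among them are Adipoq, Lyve1 in the lymphatic list, Adgre1, Csf1r, Wt1, Bnc1, Trf, Fcgr2b, Clec4g, Stab2, Clec1b, Oit3, Gpr182, Gp9 and Ppbp. With 1 array per genotype no test was possible, and the number of arrays limits the precision. Alternatives were median centring, quantile normalization, removal of a lowess trend (span 0.3), other cutoffs, list members and summaries. The computation was tested on simulated arrays with known changes. Promoter windows are those of RefSeq for GRCm38.p6. Python 3.11.15, numpy 2.4.6, pandas 2.3.3, statsmodels 0.14.6 and matplotlib 3.10.9 were used.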

Additional observations from a re-analysis of the deposited data

How the results depend on the processing

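No paired analysis was possible because there is a single array of each genotype. Shifts under 0.1 on the log2 scale, and counts within 1.5 times of the first, were treated as unchanged. Under median centring, quantile normalization and removal of a lowess trend, the blood endothelial median ran from 0.28 to 0.30, all 138 values of single genes were unchanged in this sense, and 0 genes changed sign. The authors' own scaling could not be varied. The count of genes at 1.5-fold ran from 6 with a log2 signal over 8 to 10 under the scalings, and none was lower or past 2-fold under any setting run. The blood median was 0.41 for the blood-restricted genes. The lymphatic median was 0.36 as a mean of the list and 0.47 for the strict lymphatic genes. The gap of blood over lymphatic genes was 0.081 under quantile normalization and 0.089 without the lowess trend, and it turned to -0.0054 with means and to -0.051 with the restricted and strict lists. Leaving out Aqp1, Car4, Hey1, Jam2, Pdpn and Nrp2, which other cells of fat are also known to express, was chosen after seeing the data. The lymphatic median was then 0.47 and the gap -0.17, as only 4 lymphatic genes remain, while the blood median stayed at 0.30. Signals near background, such as those of Gja4 and Sele, limit what a difference can show.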
